A study of Mus musculus with 8 samples.

Results

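The sarcomeric myosin heavy and light chains were followed in C2C12 myotubes, the multinucleated muscle cells formed by this established mouse myoblast line. The members were chosen by symbol: the heavy chain genes Myh3, Myh8, Myh1, Myh2, Myh4 and Myh7 and the light chain genes Myl1, Mylpf, Myl2 and Myl3, which are 10 of the 18193 genes measured. The platform annotation gives 15 probe sets to 1 member alone. For each gene the brightest of its probe sets was used, and the others served as a check. The study measured RNA on 8 Affymetrix whole-genome arrays, 4 groups of 2, which its design text calls biological duplicates. All cultures were kept 3 days in 2% dialyzed serum to differentiate, were then infected with adenovirus, and gave their RNA 3 days later. The GFP-PGC-1α+DFO group carried adenovirus for GFP-PGC-1α and received 100 µM deferoxamine (DFO), which binds iron. The GFP-PGC-1α group carried the same construct without DFO. The GFP+DFO group carried adenovirus for GFP alone and received 100 µM DFO, and the GFP group carried GFP alone without DFO. PGC-1α is a coactivator of genes of mitochondrial metabolism. Every culture was virus-infected, the host cells keep their own Ppargc1a gene, and the sources used here name no promoter for the construct.

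Muscle myosin is a motor of heavy chains, each of which binds an essential and a regulatory light chain, and it forms the thick filament of the sarcomere. Differentiating muscle first makes embryonic (Myh3) and perinatal (Myh8) heavy chains. Adult fibres use slow (Myh7) or fast heavy chains (Myh2 for type IIa, Myh1 for type IIx and Myh4 for type IIb). Myl1 is the essential and Mylpf the regulatory light chain of fast muscle, while Myl3 and Myl2 are their counterparts in slow muscle and the ventricle of the heart.

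The genes Myh3, Myh2, Myh1, Myh4 and Myh8 follow each other on chromosome 11 of the mouse, so 5 of the 10 members share 1 gene cluster. RefSeq promoter windows of build GRCm38.p6, from 250 bases before to 50 after the start of the gene, were found for all 10. The windows shown are of chains that all fell under DFO. They are those of Myh4, Myh1 and Myh8, 3 neighbours in that cluster, and of Myh3, the embryonic chain of the same cluster. The last is that of Myl2, the light chain that moved differently with the construct. All are on the plus strand, at chr11:67237562-67237861 for Myh4, chr11:67199852-67200151 for Myh1, chr11:67276874-67277173 for Myh8, chr11:67078050-67078349 for Myh3 and chr5:122092474-122092773 for Myl2, which is 1 of 2 windows listed for Myl2. Capitals mark every match of the E-box CANNTG, every match of the box TATAAA read on either strand, and 2 runs of bases shared among the cluster's genes.
Myh4: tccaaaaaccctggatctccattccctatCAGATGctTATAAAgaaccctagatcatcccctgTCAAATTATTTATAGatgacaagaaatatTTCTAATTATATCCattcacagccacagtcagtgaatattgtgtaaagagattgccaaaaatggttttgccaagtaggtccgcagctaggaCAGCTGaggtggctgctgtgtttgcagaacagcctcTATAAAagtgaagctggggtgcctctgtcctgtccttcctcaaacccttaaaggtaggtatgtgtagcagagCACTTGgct
Myh1: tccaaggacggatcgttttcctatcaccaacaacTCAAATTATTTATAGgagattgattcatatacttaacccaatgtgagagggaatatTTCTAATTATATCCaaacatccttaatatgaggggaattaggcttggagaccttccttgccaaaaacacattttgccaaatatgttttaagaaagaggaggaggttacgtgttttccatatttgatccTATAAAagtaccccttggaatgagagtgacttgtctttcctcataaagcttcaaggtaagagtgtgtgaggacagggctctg
Myh8: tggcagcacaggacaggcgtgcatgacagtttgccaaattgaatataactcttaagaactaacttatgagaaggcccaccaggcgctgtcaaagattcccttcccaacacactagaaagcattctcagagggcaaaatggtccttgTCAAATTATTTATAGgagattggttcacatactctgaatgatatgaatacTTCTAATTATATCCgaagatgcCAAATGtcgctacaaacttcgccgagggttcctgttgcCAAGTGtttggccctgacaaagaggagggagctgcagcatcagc
Myh3: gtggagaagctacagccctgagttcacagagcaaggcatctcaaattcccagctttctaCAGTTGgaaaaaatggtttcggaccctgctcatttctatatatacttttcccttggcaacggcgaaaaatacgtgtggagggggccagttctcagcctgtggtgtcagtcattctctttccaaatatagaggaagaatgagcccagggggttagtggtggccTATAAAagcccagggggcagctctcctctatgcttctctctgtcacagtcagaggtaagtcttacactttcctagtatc
Myl2: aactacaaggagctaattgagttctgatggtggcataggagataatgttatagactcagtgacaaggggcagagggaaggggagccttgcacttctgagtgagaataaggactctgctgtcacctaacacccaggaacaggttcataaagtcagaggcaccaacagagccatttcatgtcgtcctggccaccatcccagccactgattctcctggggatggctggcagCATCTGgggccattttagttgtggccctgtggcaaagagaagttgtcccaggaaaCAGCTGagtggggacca
The run TTCTAATTATATCC of 14 bases stands in the windows of Myh4, Myh1, Myh8 and Myh2 and in no other of the 32851 promoters of the table. It ends 144 bases before the start site in Myh4, 146 in Myh1, 111 in Myh2 and 40 in Myh8. The run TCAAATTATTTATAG of 15 bases stands in those of Myh4, Myh1 and Myh8 alone, and it overlaps a TATAAA on the minus strand. The window of Myh3 holds neither run.

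Searched on both strands, the E-box CANNTG, the motif read by MyoD family factors, was in a window of 8 of 10 members and in 72.3% of all promoters. Its form CAGCTG was in those of Myh4, Myl1, Mylpf and Myl2, against 16.3% of all promoters. The letters TATAAA were in those of 7 members (13.6% of all), and they begin 31 bases before the start in Myh4, 32 in Myh1 and 29 in Myh3. CATTCC, known as the M-CAT element, was in those of 5 members, Myh1, Myh4, Myh7, Myl1 and Myl3 (14.7% of all). AAGGTCA, a motif bound by ERR nuclear receptors, was in none of the 10 (4.72% of all), and ACGTG, the core read by hypoxia-inducible factors, was in those of Myh3 and Myh1 (19.6% of all). The MEF2 motif, searched as CTA, 4 A or T, then TAG, was in none (0.557% of all). The CArG box, searched as CC, 6 A or T, then GG, was in Myh4 and Myl3 (1.63% of all). These are matches of letters within short windows and say nothing of binding.

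Ppargc1a, the gene of PGC-1α, read 7930 and 7710 intensity units on the GFP-PGC-1α+DFO arrays and 7211 and 7036 on the GFP-PGC-1α arrays, against 26.6 and 88.1 on the GFP+DFO arrays and 28.6 and 37.3 on the GFP arrays, so every array carried its labelled construct. Array medians lay between 59.4 and 62.8, and duplicates correlated with r from 0.942 to 0.962 over probe sets, which are not independent. The 6 myotube markers (Ckm, Acta1, Des, Tnnt3, Tnnc2 and Myom1) were above the median gene, none was listed at 1, and they summed to 13515 to 14607 units in GFP-PGC-1α+DFO, 35298 to 35307 in GFP-PGC-1α, 19569 to 20046 in GFP+DFO and 40500.3 to 42333 in GFP. The beta-actin signal at the 5' end over that at the 3' end was 0.753 and 0.811 in GFP-PGC-1α+DFO, 0.868 and 0.859 in GFP+DFO, and 0.897 to 0.921 on the other 4 arrays.

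The developmental heavy chains were brightest in GFP myotubes and dimmest with the construct and DFO together. Myh3, the embryonic chain, read 352 and 236 intensity units in GFP-PGC-1α+DFO, 2423 and 2524 in GFP-PGC-1α, 1528 and 1372 in GFP+DFO, and 5564 and 5143 in GFP. Its 4 groups did not overlap. Myh8, the perinatal chain, read 157 and 131 in GFP-PGC-1α+DFO, 1378 and 1687 in GFP-PGC-1α, 378 and 336 in GFP+DFO, and 2549 and 2579 in GFP. Both GFP-PGC-1α arrays lay below both GFP arrays, and all DFO arrays lay below all arrays without it.

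Of the fast heavy chains, Myh4 and Myh1 followed the same order and Myh2 could not be measured. Myh4, of type IIb fibres, read 157 and 149.5 in GFP-PGC-1α+DFO, 1558 and 1610.5 in GFP-PGC-1α, 290.3 and 244 in GFP+DFO, and 2246 and 1958 in GFP. Myh1, of type IIx fibres, read 1069 and 737 in GFP-PGC-1α+DFO, 3834 and 3788 in GFP-PGC-1α, 1757 and 1640.4 in GFP+DFO, and 5102 and 5327 in GFP. For both genes the groups did not overlap. Myh2, of type IIa fibres, lay between 0.99 and 8.93 on all 8 arrays, far under the array medians, and its groups overlapped, so no change of Myh2 could be read at this signal.

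The slow heavy chain took the same order at a dimmer signal. Myh7 read 50.4 and 45.8 in GFP-PGC-1α+DFO, 195 and 301 in GFP-PGC-1α, 124 and 117 in GFP+DFO, and 457 and 447 in GFP. The GFP-PGC-1α+DFO arrays were below the array medians, so the lowest Myh7 values are close to those of dim genes.

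The light chains of fast muscle had the group order of the heavy chains. Myl1 read 4542 and 4601 in GFP-PGC-1α+DFO, 10359 and 10518 in GFP-PGC-1α, 7683 and 7769.5 in GFP+DFO, and 11165 and 10935 in GFP. Mylpf read 3729 and 3669 in GFP-PGC-1α+DFO, 11138 and 10826 in GFP-PGC-1α, 5472 and 5286 in GFP+DFO, and 12227 and 11989 in GFP. For both the groups did not overlap, and the GFP-PGC-1α+DFO arrays were the lowest.

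The light chains of slow muscle did not follow the others. Myl2 read 173 and 196 in GFP-PGC-1α+DFO, 2518 and 2687 in GFP-PGC-1α, 53.3 and 57.9 in GFP+DFO, and 2346 and 2444 in GFP. Here the construct groups were the higher ones, with DFO and without it, and the GFP+DFO arrays were below their array medians. Myl3 read 97.2 and 101 in GFP-PGC-1α+DFO, 67.8 and 67.3 in GFP-PGC-1α, 73.0 and 61.7 in GFP+DFO, and 82.3 and 59.2 in GFP. Myl3 stayed near the array medians everywhere, and its GFP arrays enclosed those of both single-factor groups.

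Over the 10 members, 7 (Myh3, Myh8, Myh1, Myh4, Myh7, Myl1 and Mylpf) had the order GFP, GFP-PGC-1α, GFP+DFO, GFP-PGC-1α+DFO, high to low, with no overlap between neighbours. Groups of 2 arrays often do not overlap: among all genes 57% did not between GFP-PGC-1α and GFP, 59.8% between GFP-PGC-1α+DFO and GFP+DFO and 63.9% between GFP+DFO and GFP. Myl2 had the order GFP-PGC-1α, GFP, GFP-PGC-1α+DFO, GFP+DFO, again with no overlap.

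**Figure D1:**
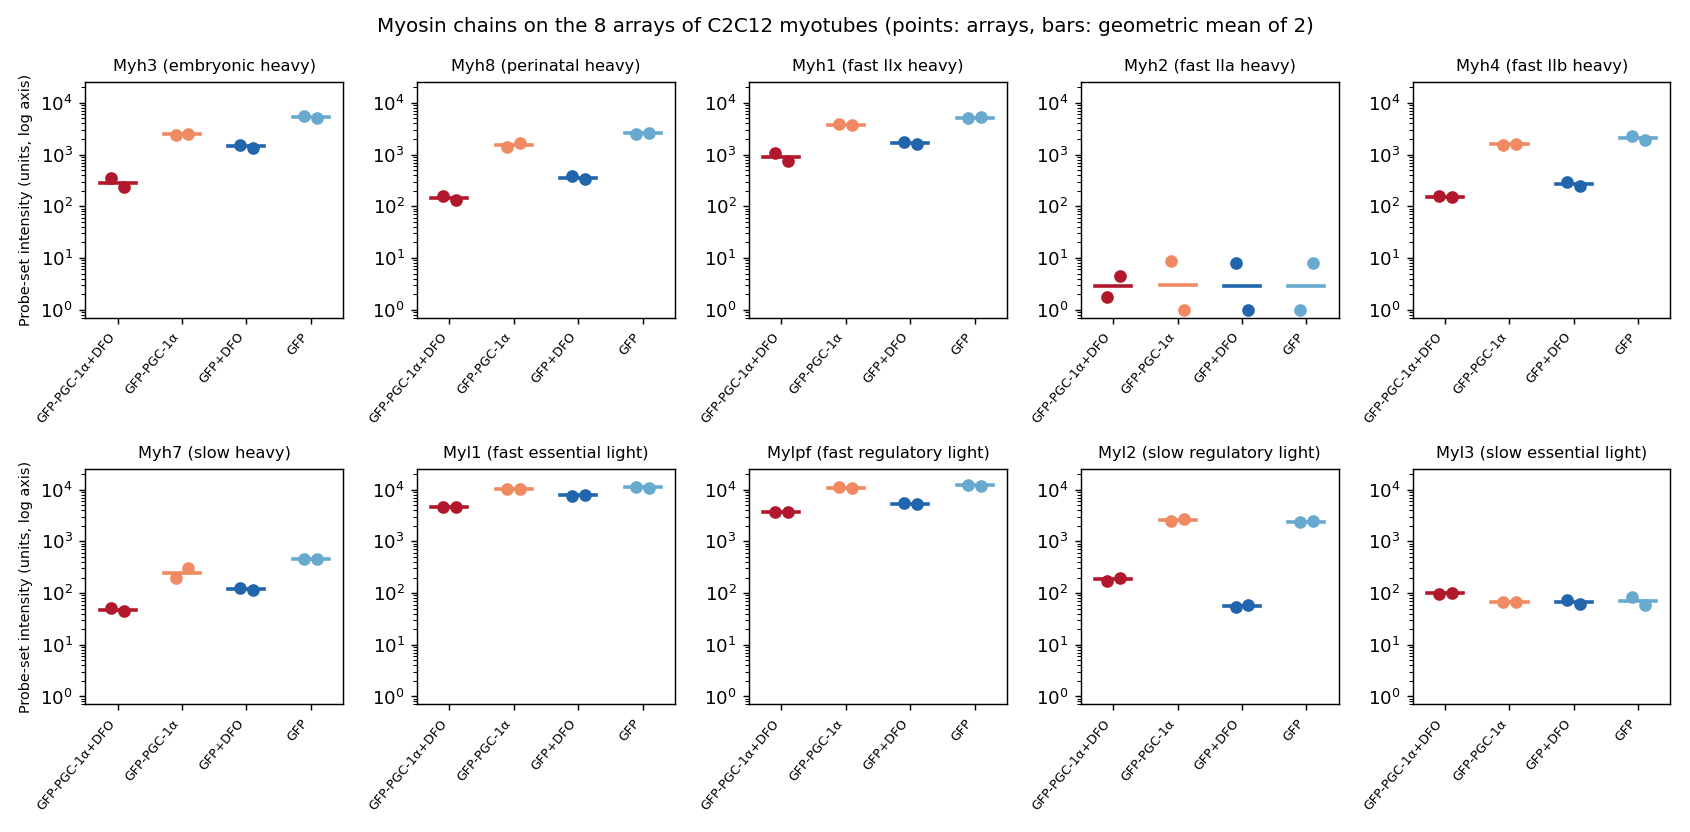
Intensity (log axis) of the probe set used for each of the 10 myosin chains on every array, by group. Points are arrays and bars the geometric mean of 2. Heavy chains other than Myh2, with Myl1 and Mylpf, descend in the same group order, Myl2 is at 173 and 196 in GFP-PGC-1α+DFO, against 53.3 and 57.9 in GFP+DFO, and Myh2 lies between 0.99 and 8.93.

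DFO lowered 8 of the 10 chains in GFP myotubes and raised none. Log2 changes are limma estimates ± SE, tested over all 18193 genes and called at a Benjamini-Hochberg adjusted p of 0.05. Myl2 fell by 5.43 ± 0.10 (limma adjusted p = 0.00011), to 2.32% of its GFP level. Myh4 fell by 2.98 ± 0.13 (limma adjusted p = 0.00027) and Myh8 fell by 2.85 ± 0.15 (limma adjusted p = 0.000386), to 12.7% and 13.9% of their GFP levels. Myh7, Myh3, Myh1 and Mylpf fell too, with log2 changes of -1.91, -1.89, -1.62 and -1.17, and Myl1 fell by 0.52 ± 0.07 (limma adjusted p = 0.00706). Myl3 had a log2 change of -0.06 ± 0.18 (limma adjusted p = 0.861).

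In GFP+DFO against GFP, 24.2% of all genes were called, 12.5% as lower, while 8 of the 10 members were. The members' median log2 change was -1.75, against -0.02 over all genes. The call of Myl1 was lost without either GFP+DFO array (log2 changes of -0.51 without replicate 1 and -0.52 without replicate 2). It was also lost on the spike-in scale (limma adjusted p = 0.133). That scale rests on 24 probe sets named for poly-A control RNAs. Neither the addition of these RNAs nor the brightness of their probe sets was checked. In RNA of whole cultures, fewer myotubes and less myosin RNA per myotube cannot be told apart. The myotube markers moved too: Ckm, Tnnt3, Tnnc2 and Myom1, 4 of the 6, fell, while Acta1 and Des had log2 changes of -0.26 and -0.27 (limma adjusted p = 0.0831 and 0.123). The part of these markers and of the lower beta-actin ratio in the result was not tested.

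In myotubes with the construct DFO lowered the same 8 genes. Myl2 fell by 3.82 ± 0.10 (limma adjusted p = 7.53e-05), to 7.09% of its GFP-PGC-1α level. Myh8, Myh4, Myh3 and Myh7 fell, with log2 changes of -3.41, -3.37, -3.10 and -2.33, leaving 9.39%, 9.69%, 11.7% and 19.8% of their GFP-PGC-1α levels. Myh1 fell by 2.10, Mylpf fell by 1.57 and Myl1 fell by 1.19 ± 0.07 (limma adjusted p = 0.000497). Myl3 had a log2 change of 0.55 ± 0.18 (limma adjusted p = 0.0834), but it passed when scaled to the spike-ins (0.99, adjusted p = 0.0218). Of all genes 25.6% were called in this comparison, 14.2% as lower, and 60.7% did not overlap between the groups, and the members' median was -2.22 against 0.01 over all genes. On the spike-in scale the median of all genes is higher by 0.44, and the 8 falls were still called.

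**Figure D2:**
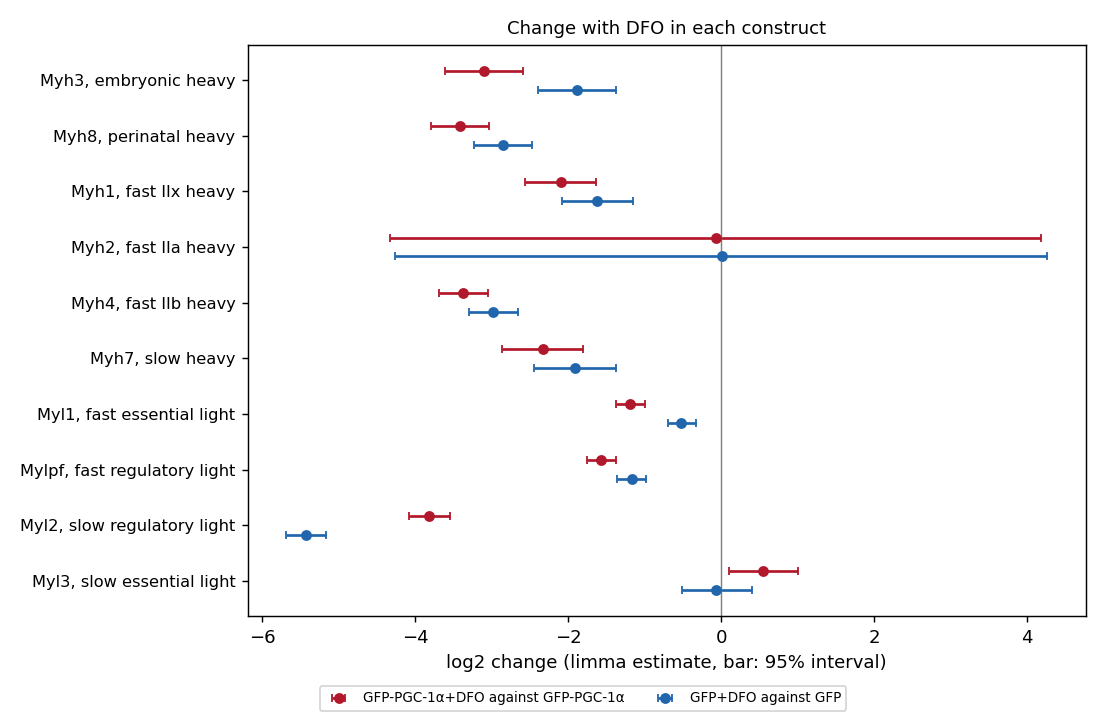
Log2 change with DFO for each chain (limma estimate, bars 95% intervals) in myotubes with the construct and with GFP. Points of 8 chains lie left of 0 in both, Myl2 at -3.82 with the construct and -5.43 with GFP, and the intervals of Myh2 span several log2 units.

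The construct without DFO lowered Myh3 and Myh8, and the other 8 chains did not pass. Myh3 fell by 1.11 ± 0.20 (limma adjusted p = 0.0319), to 46.2% of GFP, and Myh8 fell by 0.75 ± 0.15 (limma adjusted p = 0.0412). In GFP-PGC-1α against GFP, 9.73% of all genes were called, 4.77% as lower and 4.96% as higher, and 2 of the 10 members were. The chains that did not pass included Myh7, with a log2 change of -0.90 ± 0.21 (limma adjusted p = 0.061), Myh1 with -0.45 (adjusted p = 0.189) and Myh4 with -0.40 (adjusted p = 0.112). Myl1, Mylpf, Myl2 and Myl3 lay between -0.14 and 0.12. The members' median was -0.27, against -0.08 over all genes.

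Both calls depended on the scaling and on single arrays. On the spike-in scale, which lifts the median of all genes by 0.18, Myh3 had -0.94 (adjusted p = 0.087) and Myh8 -0.57 (adjusted p = 0.259), and neither passed. Leaving out any 1 of the GFP, GFP-PGC-1α or GFP+DFO arrays ended the calls of both Myh3 and Myh8. The call of Myh8 was also lost with the mean of probe sets and with every probe set (adjusted p = 0.0623 in each). Myh7 gained a call among genes above the median level (adjusted p = 0.00638), with dim values floored (adjusted p = 0.0334), with limma's trend and robust options (adjusted p = 0.00374) and without GFP-PGC-1α replicate 2 (-1.21, adjusted p = 0.0333), so a difference between the developmental chains and Myh7 is not shown.

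Under DFO the construct lowered 7 chains and raised Myl2. Myl2 was 1.73 ± 0.10 higher on the log2 scale in GFP-PGC-1α+DFO than in GFP+DFO (limma adjusted p = 0.00117). Myh3 fell by 2.33 ± 0.20 (limma adjusted p = 0.00252), to 19.9% of GFP+DFO. Myh7, Myh8, Myh1, Myh4 and Myl1 fell, with log2 changes of -1.32, -1.31, -0.94, -0.79 and -0.76, and Mylpf fell by 0.54 ± 0.08 (limma adjusted p = 0.00971). Myl3 had a log2 change of 0.56 ± 0.18 (limma adjusted p = 0.0945). Of all genes 18.9% were called, 12% as lower and 6.93% as higher, and 8 of the 10 members were.

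These falls depended on the scaling of the arrays, and which scale is nearer to the RNA amounts was not tested. On the spike-in scale the median of all genes is higher by 0.62, and 3 members were called: Myh3 with a log2 change of -1.71 (adjusted p = 0.00615), Myl2 with 2.35 (adjusted p = 0.0032) and Myl3 with 1.18 (adjusted p = 0.0164). On it Myh7, Myh8, Myh1, Myh4 and Myl1 had -0.71, -0.70, -0.32, -0.18 and -0.14 and did not pass, and Mylpf had the opposite sign, 0.08 (adjusted p = 0.733). Without GFP+DFO replicate 1 the count of called members was 3, and without replicate 2 it was 5. The sum of the myotube markers and the beta-actin ratio were also lower in GFP-PGC-1α+DFO than in GFP+DFO, and their part in the result was not tested.

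**Figure D3:**
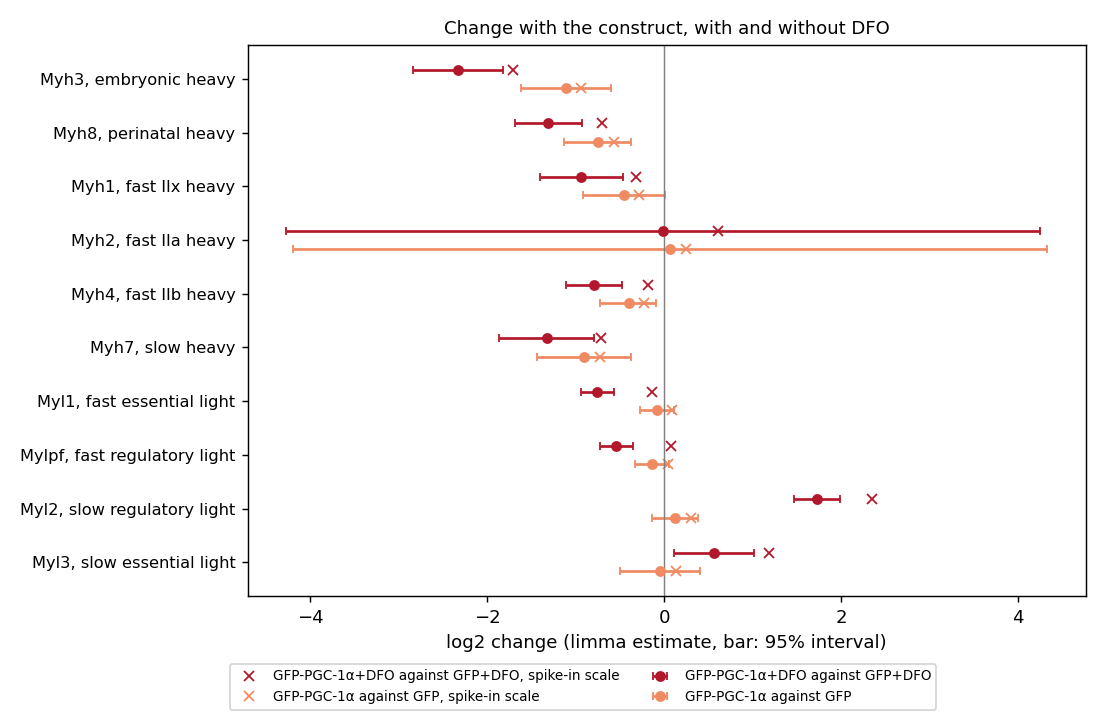
Log2 change with the construct for each chain (limma estimate, bars 95% intervals) under DFO and without it; crosses give the spike-in scale. Myl2 under DFO stands at 1.73 and Myh3 at -2.33, both on the same side of 0 on the spike-in scale, where Mylpf under DFO lies at 0.08.

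The interaction, the construct's log2 change with DFO minus that without it, passed for Myl2 alone of the 10 members (1.61 ± 0.15, limma adjusted p = 0.0366), while 0.555% of all genes were called, 0.231% as positive and 0.324% as negative. The Myl2 call was lost on the spike-in scale (2.05, adjusted p = 0.132) and without any 1 of 7 arrays (adjusted p up to 0.209). It was kept without GFP-PGC-1α+DFO replicate 1 (adjusted p = 0.0484). Myh3 had an interaction of -1.21 ± 0.28 (limma adjusted p = 0.139), and Myl1 of -0.68 ± 0.10 (limma adjusted p = 0.07). The other members lay between -0.56 and 0.61, and none of them passed. The interaction uses all 4 groups, and the comparisons with DFO and with the construct share arrays with each other.

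With both factors together against neither, 8 of the 10 members were lower, where 31.8% of all genes were called and 18.3% as lower. Myh3 fell by 4.21 (limma adjusted p = 0.000162), to 5.39% of GFP, and Myh8 fell by 4.16, to 5.59%. Myh4, Myl2, Myh7, Myh1, Mylpf and Myl1 had log2 changes of -3.77, -3.70, -3.23, -2.55, -1.71 and -1.27, and all of these passed. Myl2, the chain furthest below GFP with DFO alone, was at 7.7% of GFP here. Myl3 had a log2 change of 0.50 ± 0.18 (limma adjusted p = 0.0934). It passed on the spike-in scale (1.12, limma adjusted p = 0.00972), where the median of all genes was 0.61. With the mean of its probe sets the Myl3 change had the opposite sign, -0.45 (limma adjusted p = 0.411).

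Isoforms were set against each other within each array, where scaling cancels. Each log2 difference is between probe sets of 2 genes, so its size has no meaning on its own and what is read is how it moved between groups. An exact permutation test of the 8 arrays within the other factor allows 36 assignments and no two-sided p under 0.0556, so it could not pass 0.05. Myh7 minus Myh4, slow against fast IIb, was higher with DFO by 1.05 (exact permutation p = 0.0556, adjusted p = 0.0694 over 5 pairs), with 1.03 in myotubes with the construct and 1.07 in GFP myotubes. It was lower with the construct by a log2 difference of -0.51 (exact permutation p = 0.0556, adjusted p = 0.0694), at -0.53 with DFO and -0.50 without it. These values rest on 1 probe set of Myh7, dim in GFP-PGC-1α+DFO. The brighter of 2 probe sets shared by Myh7 and Myh6 had a mean log2 of 7.13, against 7.31 for that of Myh7. It changed with DFO by -2.55 in the construct groups and -2.82 in the GFP groups. Myh4 changed by -3.37 and -2.98 there, so in the GFP groups the falls were close. With the construct the brighter shared probe set changed by -0.78 under DFO and -1.04 without it, against -0.79 and -0.40 for Myh4. The dimmer shared probe set changed by 0.91 and 0.15 with the construct, and by -1.32 and -2.08 with DFO in the construct and GFP groups. None of its changes passed.

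The embryonic chain set against the fast IIb chain gave differences of opposite sign with DFO and with the construct. Myh3 minus Myh4 was higher with DFO by 0.68 (exact permutation p = 0.0556, adjusted p = 0.0694), by 0.27 in myotubes with the construct and 1.09 in GFP myotubes. With the construct it changed by -1.12 (exact permutation p = 0.0556, adjusted p = 0.0694), by -1.53 with DFO and -0.71 without it. Myh8 minus Myh4 changed by 0.04 with DFO (exact permutation p = 0.7778) and by -0.43 with the construct (exact permutation p = 0.0556, adjusted p = 0.0694).

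Among the light chains, Myl2 minus Mylpf, slow against fast regulatory, changed by -3.25 with DFO (exact permutation p = 0.0556, adjusted p = 0.0694), by -2.25 in myotubes with the construct and -4.26 in GFP myotubes. With the construct it changed by 1.27 (exact permutation p = 0.0556, adjusted p = 0.0694), by 2.27 with DFO and 0.26 without it. Myl3 minus Myl1, slow against fast essential, changed by 1.10 with DFO (exact permutation p = 0.0556, adjusted p = 0.0694), by 1.74 in myotubes with the construct and 0.46 in GFP myotubes. There Myl3 itself changed by 0.55 and -0.06 and did not pass, while Myl1 changed by -1.19 and -0.52. Myl3 stayed near the array medians, so this difference mostly follows the fall of Myl1. With the construct it changed by 0.68 (exact permutation p = 0.1667), by 1.32 with DFO and 0.03 without it. With the mean of each gene's probe sets in place of the brightest, the construct value of Myl3 minus Myl1 turned to -0.11 and the DFO value of Myh8 minus Myh4 to -0.10.

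**Figure D4:**
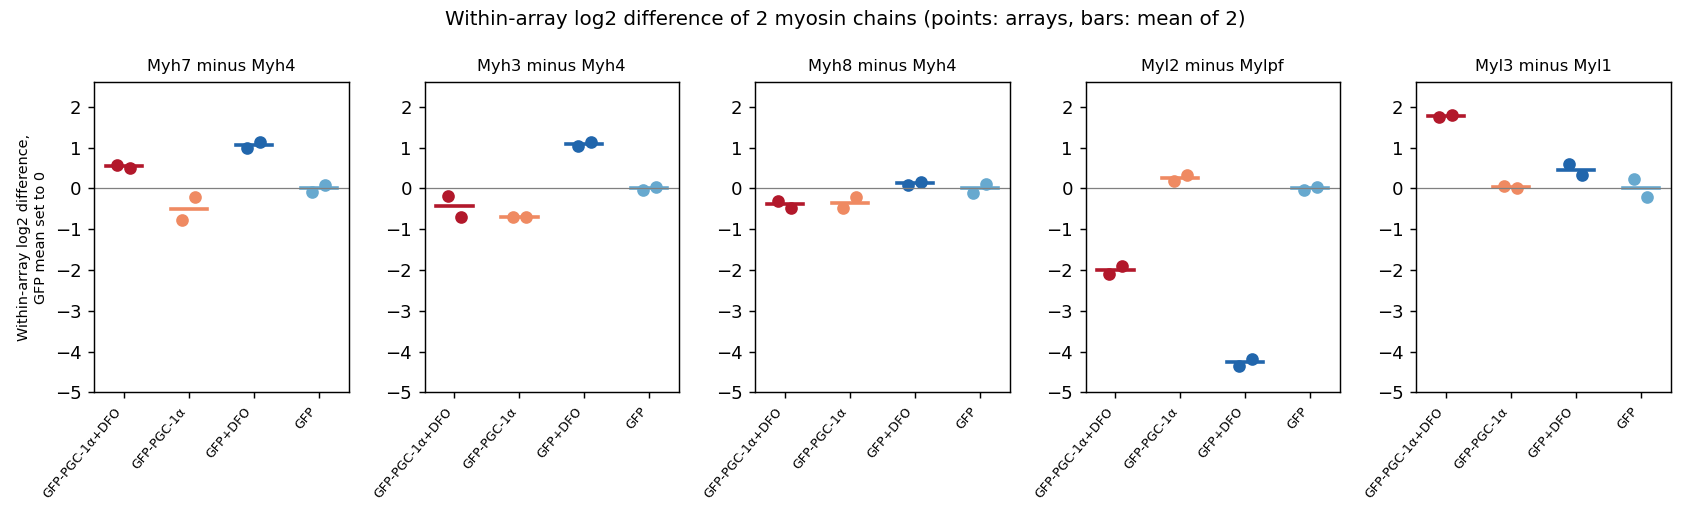
Within-array log2 difference of 2 myosin chains, with the GFP mean set to 0; points are arrays and bars the mean of 2. Myh7 minus Myh4 lies between 0.51 and 1.15 on the 4 DFO arrays, and Myl2 minus Mylpf is at -2.09 and -1.89 in GFP-PGC-1α+DFO and -4.34 and -4.17 in GFP+DFO.

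Other probe sets of the same genes were read beside those used. The second bright probe set of Myh1 read 847 and 635 in GFP-PGC-1α+DFO, 3706 and 3732 in GFP-PGC-1α, 1428 and 1347 in GFP+DFO, and 5455 and 5894 in GFP, the same order as the first. Fitted with every probe set, it changed with DFO by -2.34 in the construct groups and -2.03 in the GFP groups (limma adjusted p = 0.00104 and 0.00181). The dimmer probe set of Myh4 read 19.1 and 22.8 in GFP-PGC-1α+DFO, 162 and 160.2 in GFP-PGC-1α, 46.1 and 26.6 in GFP+DFO, and 259 and 233 in GFP, with log2 changes with DFO of -2.95 in the construct groups and -2.81 in the GFP groups (limma adjusted p = 0.00242 and 0.00329). Its construct effect under DFO was -0.75 (adjusted p = 0.15). The third probe set of Myh1 and the other 2 of Myl3 lay between 1 and 21.0 on every array, and none of their changes passed. The brighter of 2 probe sets shared by Myh7 and Myh6, the slow and the atrial heavy chains, fell with DFO. It changed by -2.55 in the construct groups and -2.82 in the GFP groups (limma adjusted p = 0.0143 and 0.0116). No change of the dimmer shared probe set passed. The heavy chains are similar in sequence, and whether a probe set of 1 also reads another was not tested.

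Of 14 measured genes for other conventional myosin chains, DFO in GFP myotubes raised 1 and lowered 3: Myh9, a non-muscle heavy chain, at 0.66, and Myl9, a light chain of smooth muscle and non-muscle myosin, at -3.12, Myl4, the embryonic and atrial essential light chain, at -2.94, and Myh10, another non-muscle heavy chain, at -1.42. These 4 of 14 stand against 24.2% of all genes called there, a share near the background. Myl4 averaged 1028 ± 45.9 in GFP-PGC-1α+DFO, 6865 ± 76.5 in GFP-PGC-1α, 1111 ± 59.5 in GFP+DFO, and 8538 ± 25.9 in GFP (SD, n = 2 arrays). In the construct groups DFO raised 1, Myl6b, and lowered 5, where 25.6% of all genes were called. There Myl9, Myl4 and Myh10 had log2 changes of -3.25, -2.74 and -1.39. The construct moved none without DFO and lowered Myl12b, at -0.89, with it. With the construct the median of these 14 genes was -0.21 under DFO and -0.23 without it, against -0.05 and -0.08 over all genes.

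The 14 partners of the thick filament, with its chaperones and light chain kinases, went down or did not pass. DFO lowered 10 of 14 in the construct groups and 10 of 14 in the GFP groups, with medians of -2.78 and -1.97. Over all genes 14.2% and 12.5% were called lower in these comparisons, and the medians were 0.01 and -0.02. Mybph, a myosin-binding protein H, averaged 88.5 ± 11.5 in GFP-PGC-1α+DFO, 3468 ± 28.9 in GFP-PGC-1α, 264 ± 18 in GFP+DFO, and 4800.0 ± 362 in GFP (SD, n = 2 arrays), and with DFO it changed by -5.30 in the construct groups and -4.18 in the GFP groups. Unc45b, a chaperone that folds myosin heads, changed by -5.13 and -3.61 in the same comparisons, and Myom3, an M-band protein, by -3.99 and -3.61. The construct lowered 8 under DFO, where 12% of all genes were called lower, and 6 without it, where 4.77% were. Among them were Unc45b at -2.95 and -1.43 and Trim63, a ubiquitin ligase of the thick filament, at -2.92 and -1.41. Myom1 was at -2.06 under DFO and Mybpc2, fast myosin-binding protein C, at -1.60 without it. In the interaction 1 of 14 was called, Myom2, at -1.30 (limma adjusted p = 0.0287).

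Of 14 measured regulators of the muscle and fibre-type programme, DFO lowered 10 and raised 2, Eya1 and Nfatc1, in the construct groups and in the GFP groups. Of all genes 14.2% and 12.5% were called lower and 11.4% and 11.8% higher in these comparisons, so the 2 rises are near the background. Myog, the myogenin gene, averaged 67.1 ± 5.64 in GFP-PGC-1α+DFO, 5270.5 ± 36.5 in GFP-PGC-1α, 157 ± 23.4 in GFP+DFO, and 5277 ± 75.5 in GFP (SD, n = 2 arrays). It changed with DFO by -6.30 in the construct groups and -5.08 in the GFP groups. Myod1 changed by -4.43 and -2.98 in these comparisons, Mef2c, of the MEF2 family, by -3.39 in the construct groups, and Myf6, another myogenic factor, by -4.28 in the GFP groups. The construct lowered 8 under DFO (12% of all genes), with Myod1 at -1.74, Vgll2, a TEAD cofactor, at -1.69 and Mef2c at -1.60. Without DFO it lowered 5 (4.77% of all genes), with Myf6 at -2.81, Tead4 at -0.66 and Mef2c at -0.63. Myog differed by 0.00 ± 0.13 with the construct without DFO (limma adjusted p = 0.997) and fell by 1.22 with it under DFO (limma adjusted p = 0.00438).

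The 8 arrays form 4 groups of 2, so a correlation over them mostly compares 4 group means. Among the 8 chains that fell with DFO, the 28 pairs had Pearson r from 0.634 to 0.995 over the 8 arrays, with a median of 0.959. These 8 were picked for that fall on the same arrays, which by itself makes r high. With the other 9 members, Myh2 had a median r of -0.006 and Myl3 of -0.626. Of 9088 genes above the median level, those most like Myh3 were Trim63, Pmpca, a mitochondrial peptidase subunit, Ttn, titin, and Gnl3l, with r of 0.998 to 0.999. Those most like Myh4 were Iffo1, Pgam2, muscle phosphoglycerate mutase, Myom3 and Mb, myoglobin, with r of 0.998 to 0.999. Myh7 was followed by Cacna1s, the calcium channel of muscle T-tubules, Ift27, Zeb1 and Chordc1, with r of 0.992 to 0.994. Myl2 was followed by Trap1, a mitochondrial chaperone, Usp2, Actn2, alpha-actinin 2 of the Z-disc, and Hint2, with r of 0.996 to 0.998. Actn2 had, with the construct, log2 changes of 1.07 under DFO and 0.23 without it, beside 1.73 and 0.12 for Myl2.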

How the data were processed

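RNA of 8 C2C12 cultures was hybridised to Affymetrix arrays after biotin labelling, per the labels' protocols. The deposited unit is linear intensity, 1 value per probe set. The sources name neither the authors' probe summary nor their background correction and scaling. Array medians of 59.4 to 62.8 show that the arrays had been brought to a like level, so a difference in total RNA is not visible. No pseudocount was added before taking log2, and dim genes were kept. Each of 18193 genes was represented by the brightest probe set annotated to it alone (34945 of 45101 probe sets have 1 symbol).

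The linear model of limma 3.58.1 (R 4.3.3) had a mean for each group over 8 arrays, leaving 4 residual degrees of freedom, with 1.3 more from the prior. It gave 6 contrasts, with two-sided Benjamini-Hochberg p-values over all genes. These p-values measure the spread between duplicate cultures, and 2 arrays a group limit the precision. The procedure was tested on simulated data. Genes outside the 10 members were named by a rule: in each list, up to 3 with the largest called change per comparison, Myog and Myod1 always, and the 4 most correlated genes for Myh3, Myh4, Myh7 and Myl2. Myom2, Myl6b, Eya1 and Nfatc1, and the genes named from marker lists, were picked after their values were seen. Members and lists were chosen with earlier results of these data known. Arrays were alternatively quantile-normalized, median-centred or scaled to 24 poly-A spike-in probe sets. Genes were alternatively taken as the mean of their probe sets, without _x_at or _s_at probe sets, as every probe set, above the median level, or with a floor at the 25th percentile. The model was alternatively fitted with trend and robust options, on the groups compared, with the replicate number as a block, and without each array. Promoters are from RefSeq, matched by symbol. Plots used matplotlib 3.10.9 (Python 3.11.15).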

Additional observations from a re-analysis of the deposited data

Results flagged for a closer look

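The construct's effect on Myl2, the slow and ventricular regulatory light chain, differed between cultures with and without DFO by the interaction test. Myl2 was 1.73 higher on the log2 scale in GFP-PGC-1α+DFO than in GFP+DFO, and 0.12 higher in GFP-PGC-1α than in GFP, a difference of 1.61 ± 0.15 (limma adjusted p = 0.0366). The call was lost on the spike-in scale (2.05, adjusted p = 0.132), with the mean of probe sets (adjusted p = 0.0609), with every probe set (adjusted p = 0.063), with the replicate number as a block (adjusted p = 0.0994) and without any 1 of 7 arrays (adjusted p = 0.0879 to 0.209). Both construct arrays were above both GFP arrays with DFO and without it, where 59.8% and 57% of all genes did not overlap. Without DFO the change of Myl2 did not pass (limma adjusted p = 0.522). Groups of 2 arrays are too small to mark a single array as far from the others.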

How the results depend on the processing

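Of 1118 log2 changes of members under the alternatives, 1034 stayed on their side of the threshold, 58 lost the call and 25 gained it. The remaining 1 was a called change that turned its sign, Mylpf under the construct with DFO, at 0.08 on the spike-in scale. Changes that were not called as reported turned their sign in 31 cases, 20 of them of Myh2 and 5 of Myl3, and none of these was called. They included Myl1, Mylpf and Myl3 in GFP-PGC-1α against GFP, at 0.09, 0.04 and 0.13 on the spike-in scale. The counts of members called with DFO (8 in each comparison) stayed between 7 and 9 in all settings run, and so did the 8 of both factors against neither. For GFP-PGC-1α against GFP the count was 2 as reported, 0 on the spike-in scale and in a fit of the groups compared, 1 with the mean of probe sets and with every probe set, 4 among genes above the median level, 6 with trend and robust options, and 0 to 3 with each array left out. For GFP-PGC-1α+DFO against GFP+DFO it was 8 as reported, 3 on the spike-in scale, 4 in a fit of the groups compared, and 3 to 8 with each array left out. For the interaction it was 1 as reported, 0 on the spike-in scale, with the mean of probe sets and with every probe set, 4 among genes above the median level and with trend and robust options, 2 with the floor, and 0 to 1 with each array left out. With trend and robust options Myl1, Mylpf and Myh3 also passed in the interaction (limma adjusted p = 4.8e-06, 0.000645 and 0.00565). Their values were -0.68, -0.40 and -1.21, and they passed among genes above the median level too. Of 110 isoform differences 105 kept their direction. The exceptions were the DFO value of Myh8 minus Myh4, 0.04 as reported, which was -0.10 with the mean of probe sets and -0.02 to 0.10 with each array left out, and the construct value of Myl3 minus Myl1, -0.11 with the mean of probe sets. The causes were not tested.

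Same-numbered arrays did not deviate together (r from -0.025 to 0.032 between groups), so the numbers do not pair the samples. With the replicate number as a block, the count of called members was 1 for GFP-PGC-1α against GFP, as Myh8 had an adjusted p of 0.0827, and 0 for the interaction, as Myl2 had 0.0994. The block changed no other count of called members. Signal limits Myh2, far under the array medians, Myl3, which reads 101 units at most, and the lowest values of Myh7 and Myl2.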

Other observations

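The list of myoblast and reserve cell markers moved in both directions with DFO, 2 of 6 up and 2 down in the construct groups and in the GFP groups. Of all genes 11.4% and 11.8% were called higher in these comparisons, and 14.2% and 12.5% lower. Sdc4, syndecan-4, averaged 2071 ± 70.1 intensity units in GFP-PGC-1α+DFO, 806 ± 45.8 in GFP-PGC-1α, 1230.4 ± 272 in GFP+DFO, and 371 ± 2.06 in GFP (SD, n = 2 arrays). Cdh15, M-cadherin, averaged 120.3 ± 0.177 in GFP-PGC-1α+DFO, 1280.5 ± 5.96 in GFP-PGC-1α, 309 ± 4.41 in GFP+DFO, and 1401 ± 129 in GFP. The 6 markers summed to 2655 to 3015 units in GFP-PGC-1α+DFO, 3147 to 3275 in GFP-PGC-1α, 2249 to 2618 in GFP+DFO, and 2733 to 3016 in GFP, a narrower range than that of the myotube markers.

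The 6 fibroblast markers summed to 14470 to 15261 units in GFP-PGC-1α+DFO, 13024 to 13411 in GFP-PGC-1α, 18205 to 18555 in GFP+DFO, and 13658 to 13663 in GFP, and 2 of 6 rose with DFO in the construct groups and in the GFP groups. The 6 smooth muscle markers, of which Acta2 made up most of the sum without DFO, had 1 rise and 2 falls with DFO in the construct groups and in the GFP groups. Beside the counts of both lists, 11.4% and 11.8% of all genes were called higher in these comparisons, and 14.2% and 12.5% lower. A shift in cell types was not tested. Of the 5 measured cycling cell markers 4 were below the median gene, as were all 4 measured adipocyte markers. No marker of these lists was listed at 1 on any array.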
